A study of Mus musculus with 4 samples.

Results

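Mitochondrial ribosomal proteins were examined across 4 arrays of mouse heart muscle, which the labels of the IL-18 null pools place in the left ventricle. The members were the genes whose symbol on the array begins with Mrpl (large subunit) or Mrps (small subunit) followed by a digit. Of 12393 genes with a probe set (a group of short probes for 1 transcript) of their own, 74 qualified: 47 Mrpl and 27 Mrps genes. The mitochondrial ribosome is built in the mitochondrial matrix from RNAs encoded by mitochondrial DNA and from proteins that are encoded in the nucleus, made in the cytosol and imported. It translates the few respiratory chain and ATP synthase subunits that mitochondrial DNA encodes. Heart muscle is rich in mitochondria, and human mutations in several of these genes, MRPL3, MRPL44 and MRPS22 among them, are known causes of infantile cardiomyopathy.

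The study asked how the cytokine IL-18 bears on gene expression when the ventricle hypertrophies under pressure overload. Each array carried RNA of 1 pool: wild-type mice after a sham operation, wild-type mice after transaortic banding (a constriction of the aorta), IL-18 null mice after a sham operation, and IL-18 null mice after banding. The IL-18 null strain is on a C57BL/6 background per the labels of its banded pool; the background of the other pools and the age of the mice are not given in the sources used here. The null pools held 5 (sham) and 6 (banded) mice and the design gives 5 to 6 for every group; 1 week of constriction is labelled for the null banded pool alone. No array carries an unoperated heart. Since every group is a single pool on a single array, the differences below carry no error, replicate check or p-value. A member counts as measured if either array of the comparison reached 64 intensity units. Values under 64 were raised to that floor (6 on the log2 scale), and a difference that involves one is a bound, written "at least". Called genes differ 2-fold or more, a log2 difference of 1. Array values are always listed sham before banded and wild type before null, which is called array order below.

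The wild-type sham array stood apart for these genes. At least 1 array measured 73 of the 74; Mrps11 lay below the floor on all 4, at log2 intensities of 5.29, 5.81, 5.24 and 5.26 in array order. The median log2 intensity of the 73 was 8.55, 9.65, 9.42 and 9.63 in array order, while that of all 5158 genes measured was 8.15, 8.40, 8.29 and 8.44. Below the floor lay 11, 0, 1 and 1 of the 73. Wild-type sham was the lowest array for 42 members (57.5%, against 32.2% of all genes) and the highest for 17 (23.3%, against 37.9%). On the 3 other arrays 64 of the 73 stayed within a 2-fold range (87.7%, against 81.5% of all genes). Wild-type banded was the highest array for 35 members (47.9%, against 25.8% of all genes) and the lowest for 14 (19.2%, against 31.9%). With wild-type banded left out instead, 44 of the 73 stayed within a 2-fold range (60.3%, against 69.1%).

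In transcripts probed at several positions the arrays differed in the excess of 3′ signal. For Gapdh, Actb and a bacterial spike (dap) 3′ minus middle signal averaged 4.74 ± 0.14, 0.72 ± 1.14, 3.37 ± 1.14 and 3.01 ± 1.47 in array order (log2, SD over 3 transcripts). Signal at the 3′ end minus that at the 5′ end averaged 4.81 ± 1.08, 1.33 ± 0.97, 4.81 ± 1.64 and 4.84 ± 2.20. Wild-type sham was the highest array by the former measure, and wild-type banded the lowest by both. The part of either in the differences of the ribosomal genes was not tested. Banding within the null mice uses neither array, and the genotype comparison within banded mice uses wild-type banded. The 3′ signal itself was lowest in wild-type sham for all 3 transcripts. For dap, which is not a mouse transcript, it was 7.56, 10.83, 10.69 and 10.70 in array order (log2). Whether the low wild-type sham values of the ribosomal genes share a source with this was not tested. All 8 cardiomyocyte markers were at or above the floor on every array; their summed intensity was 146898, 185733, 176354 and 169894 in array order. That of 6 fibroblast markers was 6997, 20756, 11162 and 26387 in the same order, that of 6 endothelial markers 2572, 3414, 3382 and 2527 (Pecam1 below the floor on all but wild-type banded), that of 5 macrophage markers 2587, 3891, 2700 and 6972 (Cd68 at the floor only in null banded), that of 4 smooth muscle markers 2858, 2575, 1665 and 2166 (Myh11 and Cnn1 below it throughout), and that of 3 atrial markers 1552, 3919, 1765 and 2097. Within these lists markers could go different ways in wild-type banding. Positive differences numbered 7 and negative ones 1 among cardiomyocyte markers, 5 and 1 among fibroblast markers, and 4 and 2 among endothelial markers. Of 4 macrophage markers measured, 1 was positive (Lyz2, 1.62) and 3 were negative. Of 2 smooth muscle markers measured, Tagln was at least 2.32 higher and Acta2 differed by -0.33. Skeletal muscle, adipocyte and B cell markers lay below the floor on every array, as did the T cell markers apart from Cd3e in wild-type sham and the red cell markers apart from Alas2 in wild-type banded. The part of cell makeup in the results was not tested, and in bulk RNA fewer cells of a type and less RNA per cell cannot be told apart.

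**Figure D1:**
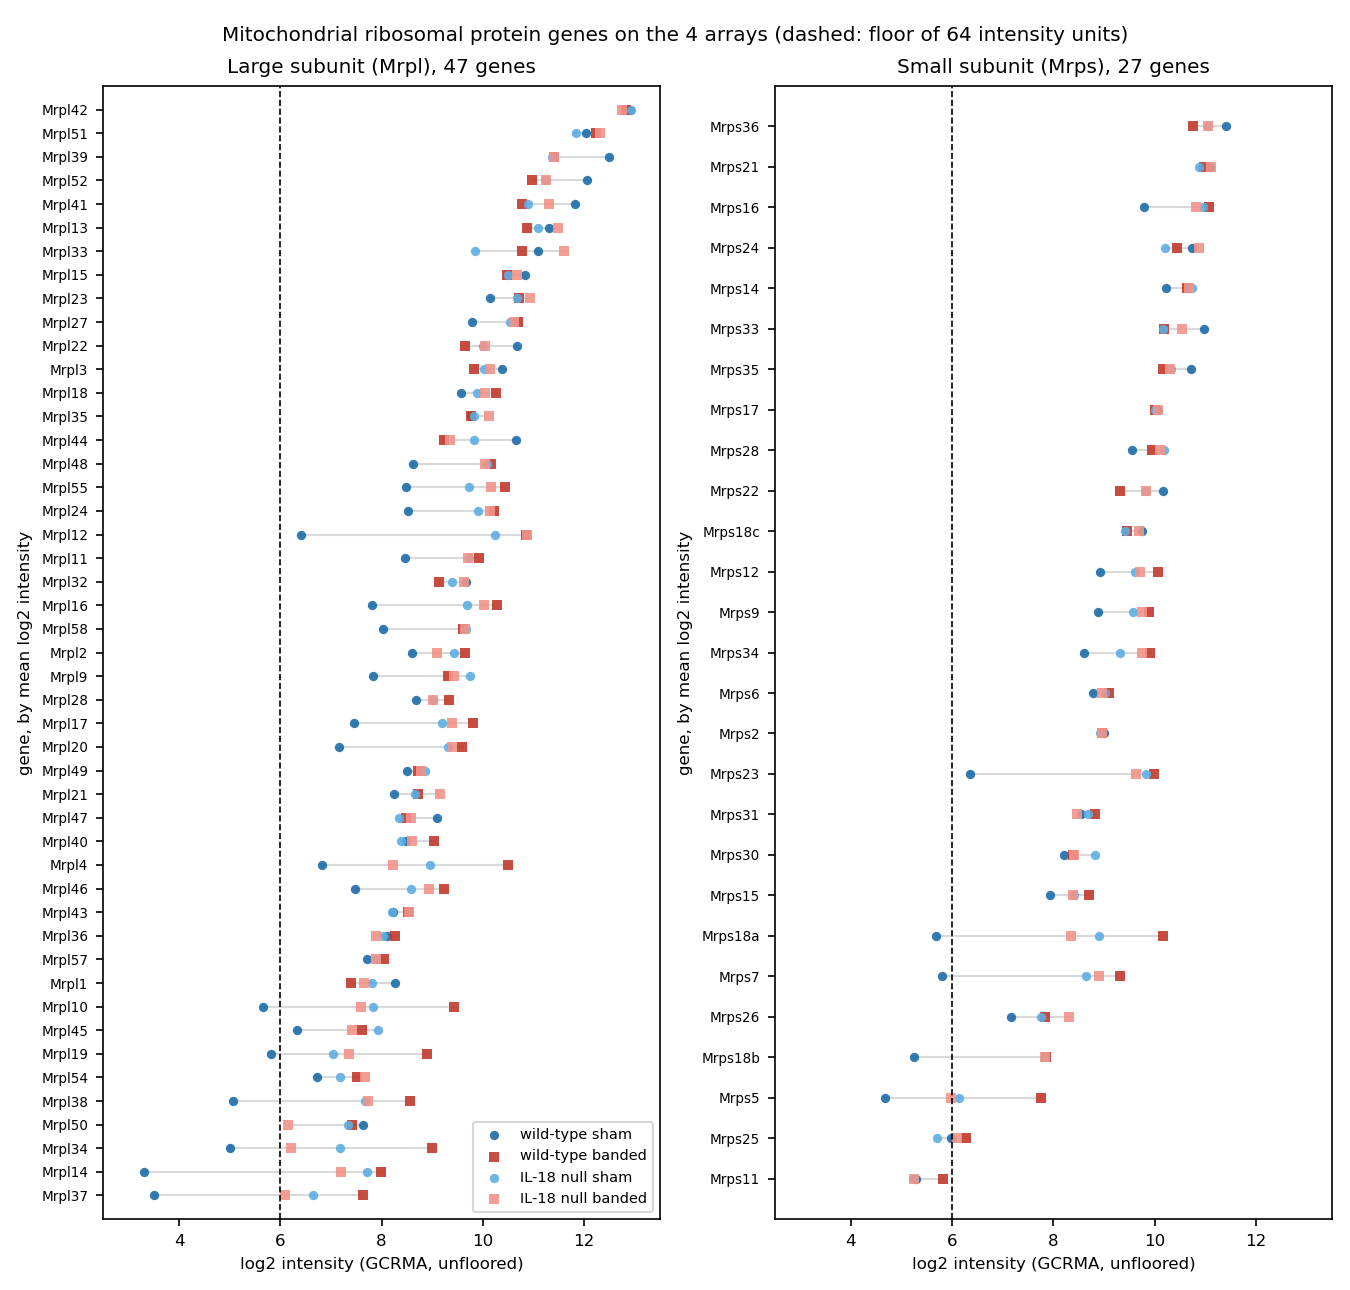
Log2 intensity (GCRMA, horizontal axis) of each of the 47 large and 27 small subunit genes, ordered by mean, with 1 point per pooled array. The wild-type sham points of Mrpl12, Mrps23 and Mrps18a lie far left of the other 3, while the points of Mrpl42, Mrps17 and Mrps2 fall together.

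Between the wild-type arrays, many of these genes had higher signal after banding. At least 2-fold higher in wild-type banded were 29 of 73 measured members (39.7%, against 21.7% of 5040 genes) and at least 2-fold lower were 5 (6.85%, against 12.8%). The median difference was 0.53 (quartiles -0.22 and 1.63), against -0.08 for all genes. For 10 of the 29 the wild-type sham value was below the floor; among the 62 members at or above it on all 4 arrays, 19 were higher and 5 lower (30.6% and 8.06%), against 17.1% and 14.1% of the 3991 genes that met the same condition. Quantile normalization moved the median of all genes to -0.41 and that of the members to 0.17, with 24 higher and 8 lower; cyclic loess gave medians of 0.10 and 0.73, with 30 higher and 1 lower.

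Mrpl12 had the largest difference. Mrpl12 (Entrez gene 56282), a protein of the large subunit's stalk, which recruits translation factors, had log2 intensities of 6.41, 10.86, 10.24 and 10.87 in array order. It was higher by 4.44 in wild-type banded than in wild-type sham, a 21.8-fold difference, and 3 of its arrays lay within 0.63 of each other. Mrpl10, which anchors the stalk, had 5.66, 9.44, 7.83 and 7.59 and was higher by at least 3.44. Mrpl11, at the base of the stalk, had 8.47, 9.93, 9.73 and 9.71 and was higher by 1.46, while its other measured probe sets were lower (-1.14 and -0.74). In each of these 3 genes wild-type sham was the lowest array, and Mrpl10 alone was also at least 2-fold brighter in wild-type banded than on either null array.

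Other large subunit genes were also lowest in wild-type sham. Mrpl4 (Entrez gene 66163), a protein near the tunnel through which the new peptide leaves, had 6.82, 10.49, 8.96 and 8.22 in array order, and was higher by 3.67. Mrpl34, a small core protein, had 5.0, 9.0, 7.19 and 6.22 and was higher by at least 3.0. Mrpl19 had 5.81, 8.89, 7.05 and 7.36 and was higher by at least 2.89. Wild-type banded was the highest array in each of these, more than 2-fold above the next; in Mrpl16, Mrpl20 and Mrpl17, higher by 2.47, 2.44 and 2.36, both null arrays lay within 2-fold of it. Mrpl38, at least 2.57 higher, Mrpl14, at least 1.98, and Mrpl37, at least 1.63, were below the floor in wild-type sham. Mrpl45, which ties the ribosome to the inner membrane, was higher by 1.28, and Mrpl58, a peptidyl-tRNA hydrolase that frees stalled ribosomes, by 1.56. The other 6 large subunit genes called higher were Mrpl55, Mrpl46, Mrpl24, Mrpl48, Mrpl9 and Mrpl2, between 1.04 and 1.94. In Mrpl45, Mrpl58 and Mrpl9 null sham, not wild-type banded, was the highest array. Mrpl17, Mrpl19 and Mrpl48 were not called with the mean of all probe sets (0.17, 0.65 and 0.67), nor Mrpl2 and Mrpl45 after quantile normalization (0.73 in both). In the large subunit 20 of 47 were higher and 5 lower (42.6% and 10.6%, against 21.7% and 12.8% of all genes), with a median of 0.64.

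In the small subunit, taken by gene name, 9 of 26 measured genes were called higher and 0 lower (median 0.35). These are 34.6% and 0%, against 21.7% and 12.8% of all genes, and the 9 include Mrps18a. Mrps18a (Entrez gene 68565), 1 of 3 mammalian relatives of the bacterial S18 protein and known to sit in the large subunit in spite of its name, had 5.69, 10.17, 8.91 and 8.35 in array order. It was at least 4.17 higher in wild-type banded than in wild-type sham. Its relative Mrps18b had 5.24, 7.85, 7.83 and 7.84, at least 1.85 higher, and Mrps18c had 9.75, 9.46, 9.42 and 9.69, a difference of -0.29. The 3 relatives therefore had 3 patterns: wild-type banded above all others in Mrps18a, wild-type sham below 3 arrays with nearly the same value in Mrps18b, and near level signal in Mrps18c. Mrps23 (Entrez gene 64656) had 6.35, 9.98, 9.82 and 9.63 and was higher by 3.64; another probe set of the gene gave at least 3.61. Mrps7, a protein of the small subunit's head, was at least 3.31 higher. Mrps5 was at least 1.75 higher, Mrps34 1.31, Mrps16 1.29, Mrps12, a protein of the decoding centre, 1.14, and Mrps9 1.01. After quantile normalization Mrps34, Mrps12 and Mrps9 were short of 2-fold (0.999, 0.85 and 0.72). Mrps9 was also not called with the mean of all probe sets, and its other measured probe sets gave at least 1.90 and -0.13.

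The 5 members called lower after banding in wild type were large subunit genes, 4 of them among the 24 brightest members on the null arrays. Mrpl44, a protein with a fold related to RNase III, had 10.66, 9.23, 9.83 and 9.35 in array order, a difference of -1.43. Mrpl39 had 12.49, 11.41, 11.37 and 11.41, a difference of -1.08: wild-type sham stood above 3 arrays that agreed within 0.04. Mrpl52 differed by -1.10, Mrpl41 by -1.04 and Mrpl22 by -1.02, and wild-type sham was the highest array in all 5. Cyclic loess left Mrpl22, Mrpl39, Mrpl41 and Mrpl52 short of 2-fold (-0.86, -0.93, -0.89 and -0.95), as did centring on all genes for the first 3. Mrpl39 was also short of it without shared probe sets (-0.89). With the mean of all probe sets Mrpl39, Mrpl41, Mrpl44 and Mrpl52 were not called lower. Mrpl41 and Mrpl52 were not lower when probe sets marked as shared between transcripts were left out (0.28 and 0.89), and Mrpl44 was then at least 1.93 higher.

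Brightness divided the members in this comparison. By mean log2 intensity on the null arrays, which the wild-type comparison does not use, 11 of the 24 dimmest members were called higher after banding and 0 lower (median 0.79). Of the middle 25, 14 were higher and 1 lower (median 1.04), and of the brightest 24, 4 were higher and 4 lower (median -0.21). All genes in the same 3 ranges of intensity had medians of -0.10, -0.11 and -0.06, with 21.5%, 23.8% and 22.5% higher and 16.9%, 13.2% and 6.34% lower. Across the 73 members the difference and the level on the null arrays correlated at -0.34 (Pearson's r) and -0.40 (Spearman's rho), and over all 5040 genes at 0.07 and 0.04. The genes share arrays and are not independent replicates.

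**Figure D2:**
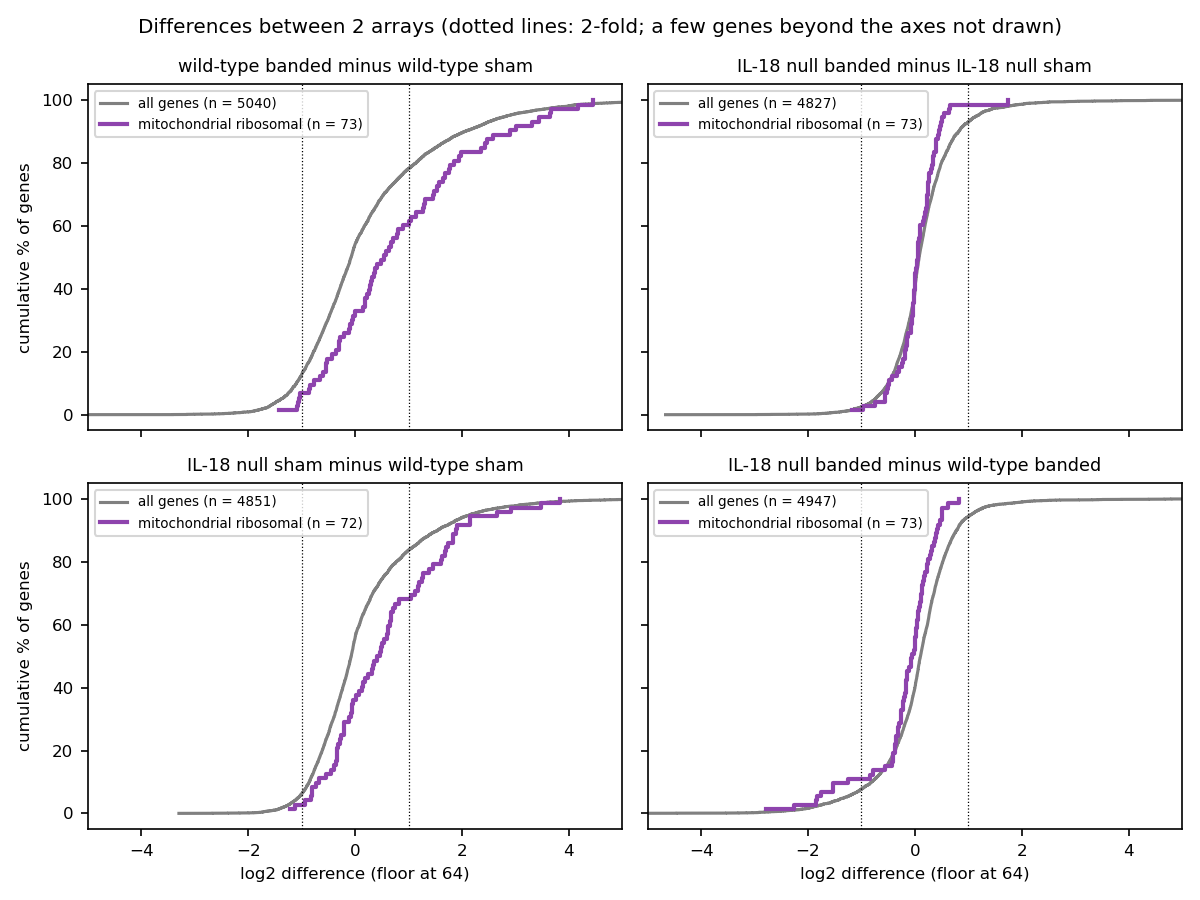
Cumulative share of genes (vertical axis, %) by log2 difference between 2 arrays (horizontal axis, floor at 64), for the mitochondrial ribosomal genes and for all genes measured. The members' curve lies right of all genes where wild-type sham is subtracted (medians 0.53 and 0.44) and near 0 after banding in null mice (0.05).

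Probe sets of the same gene did not always point the same way, although they were read on the same arrays. More than 1 probe set was measured for 18 members in the wild-type comparison, and in 9 of these the probe sets lay at least 2-fold apart. In 8 of the 9 they also had opposite signs: Mrpl11, Mrpl15, Mrpl3, Mrpl41, Mrpl44, Mrpl52, Mrps24 and Mrps9. Mrpl11 is the plainest case: the probe set used went from 8.47 to 9.93 and another from 9.11 to 7.97, a difference of -1.14. For Mrpl28 the probe set used gave 0.64 and another 3.56. In the banding comparison of the null mice, 16 members had more than 1 measured probe set, and in 1 of them, Mrpl52, these lay 2-fold apart (-0.01, 0.80 and 1.02). The genotype comparison gave 8 of 17 in sham mice and 1 of 17, Mrpl9, in banded mice. Probe sets whose name ends in _x_at hold probes that can also match unrelated transcripts: of 10 measured for the members, 0 were higher and 1 was lower in wild-type banded (median -0.47), against 12.7% and 14.6% of 683 such probe sets of all genes (median -0.31). Of the 53 that end in plain _at, 18 were higher and 2 lower (median 0.41), against 25% and 11.3% of 4332.

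**Figure D3:**
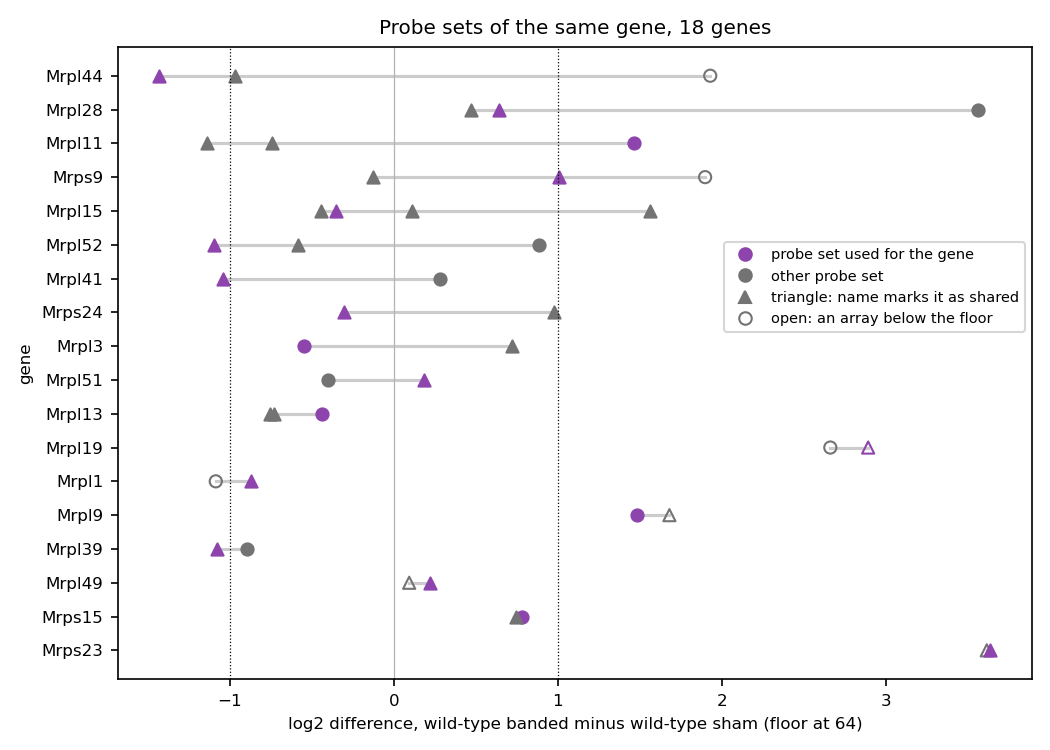
Log2 difference between wild-type banded and wild-type sham (horizontal axis) of every measured probe set of the 18 members with more than 1, with the probe set used for the gene in purple. For Mrpl44, Mrpl11 and 6 other genes the points straddle 0 and lie at least 2-fold apart.

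In IL-18 null mice banding left nearly every member within 2-fold. Of 73 measured members 1 was at least 2-fold higher (1.37%, against 6.98% of 4827 genes) and 1 at least 2-fold lower (1.37%, against 2.53%), with a median of 0.05 against 0.08. Mrpl33 (Entrez gene 66845), a small core protein of the large subunit, was the one higher, by 1.75 or 3.36-fold. Its log2 intensities were 11.08, 10.77, 9.85 and 11.60 in array order, so the null sham array was low and the null banded array high against both wild-type arrays. Mrpl50 was lower by 1.18 on the log2 scale. It had 7.63, 7.42, 7.34 and 6.16, and the null banded array was the one that stood apart. Short of 2-fold, the largest positive differences were those of Mrps24 (0.66), Mrpl12 (0.63), Mrps26 (0.55), Mrpl21 (0.50) and Mrpl51 (0.49). The largest negative ones were those of Mrpl34 (-0.97), Mrpl4 (-0.74), Mrps18a (-0.56), Mrpl37 (-0.56) and Mrpl45 (-0.51). When each gene's probe sets were averaged, neither Mrpl33 nor Mrpl50 was called. Cyclic loess, and centring on all genes, gave 1 higher and 2 lower. The members' median turned negative under both (-0.04 and -0.03), under quantile normalization (-0.07) and without probe sets marked as shared (-0.0099).

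The banding differences of the 2 genotypes use separate arrays. No member was called in both, against 199 of 4709 genes (4.23%), and with 2 members called in null mice a count near 0 was close to fixed. Across the 73 members they correlated at -0.18 (Pearson's r) and -0.13 (Spearman's rho), against -0.09 and -0.08 over 4709 genes. The difference of the responses, null minus wild type, was at least 2-fold positive for 6 of 73 members (8.22%, against 20.4% of 5158 genes) and at least 2-fold negative for 27 (37.0%, against 21%), with a median of -0.46 against 0.16. Mrps18a had the most negative value (at least 4.73 in size), followed by Mrpl4 (-4.41). Cyclic loess gave 2 positive and 32 negative. No test of this difference was possible with 1 array per group.

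Without banding, null mice had higher signal than wild-type mice for many of the genes. At least 2-fold higher in null sham were 23 of 72 measured members (31.9%, against 16.3% of 4851 genes) and at least 2-fold lower were 2 (2.78%, against 6.29%), with a median of 0.44 against -0.07. Of the 62 members that reached the floor on every array, 15 were higher and 2 lower (24.2% and 3.23%, against 13.4% and 6.19% of such genes). This comparison subtracts the same wild-type sham array as wild-type banding, so the 2 are not independent. Mrpl12 was higher by 3.83 here and by 4.44 there, Mrps23 by 3.48 and 3.64, Mrpl20 by 2.16 and 2.44, Mrpl4 by 2.15 and 3.67, Mrpl9 by 1.91 and 1.48, and Mrpl16 by 1.88 and 2.47. Among bounds, Mrps18a was at least 2.91 higher, Mrps7 at least 2.65, Mrpl10 at least 1.83 and Mrps18b at least 1.83. Mrpl33 (-1.23) and Mrpl39 (-1.12) were the 2 called lower, neither of them with the mean of all probe sets (-0.52 and -0.76), and Mrpl41 (-0.93), Mrpl44 (-0.83), Mrps33 (-0.81) and Mrpl52 (-0.81) came next. Quantile normalization gave 21 higher and 3 lower, with medians of 0.19 for the members and -0.29 for all genes.

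Among banded mice, where wild-type sham plays no part, no member was at least 2-fold higher in null than in wild type (0%, against 5.70% of 4947 genes) and 8 of 73 were at least 2-fold lower (11%, against 7.74%). The median was -0.06, against 0.11 for all genes. Among members at or above the floor on all 4 arrays, 2 of 62 were lower (3.23%, against 4.11% of such genes) and the median was 0.02, against 0.15. That condition does involve wild-type sham. Mrpl34, Mrpl10, Mrps18a, Mrpl37 and Mrpl19 reached the floor on both banded arrays and missed the condition through wild-type sham alone. The 8 were Mrpl34 (-2.79), Mrpl4 (-2.26), Mrpl10 (-1.85), Mrps18a (-1.82), Mrpl37 (-1.53), Mrpl19 (-1.53), Mrpl50 (-1.26) and Mrps5, for which the size of the difference is a bound of 1.75. With the mean of all probe sets Mrpl19 and Mrpl50 were not called (-0.65 and -0.25). In 7 of them wild-type banded was the highest of the 4 arrays, and the exception was Mrpl50. Mrpl33 (0.83), Mrpl13 (0.63), Mrpl41 (0.51), Mrps22 (0.51), Mrpl32 (0.50) and Mrps26 (0.47) had the largest positive differences.

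**Figure D4:**
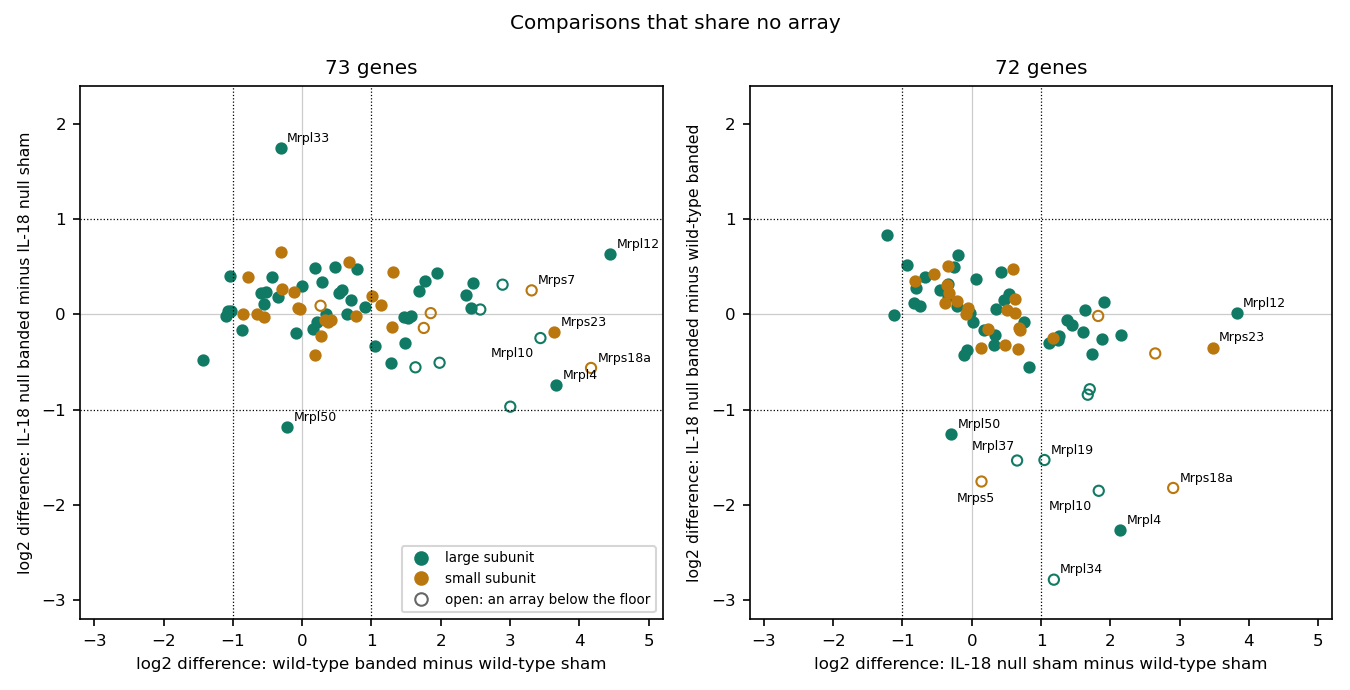
Each point is 1 gene: log2 differences after banding in wild type (horizontal) and in IL-18 null (vertical) on the left, and null minus wild type in sham (horizontal) and banded mice (vertical) on the right. Most members spread along the horizontal axis, and Mrpl34, Mrpl4, Mrpl10, Mrps18a and Mrpl19 lie at least 2-fold up on one axis and down on the other at right.

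Some members hardly differed between any arrays. Mrps17 had linear intensities of 1068, 1023, 1026 and 1072 in array order, a log2 range of 0.07. Mrps2 ranged over 0.08, Mrpl42 over 0.19, Mrps21 over 0.23 and Mrps6 over 0.32. Mrpl42 was also the brightest member, with a mean log2 intensity of 12.85, ahead of Mrpl51 (12.10), Mrpl39 (11.67), Mrpl52 (11.38) and Mrpl41 (11.20). Intensities of different probe sets depend on their probes and give no order of transcript amounts. The dimmest members measured were Mrpl37 (5.97), Mrps25 (6.01), Mrps5 (6.13), Mrpl14 (6.55) and Mrpl34 (6.85); of these, Mrps25 was the one that did not reach 2-fold in any comparison. In all, 36 members reached 2-fold in at least 1 of the 4 comparisons and 37 measured members in none. The range over all 4 arrays also spans pairs not compared here. It was under 2-fold for 36 of the 73 members (49.3%, against 57.5% of 5158 genes). Mrps36, which is counted here by its name and is known as a subunit of the 2-oxoglutarate dehydrogenase complex, had 11.41, 10.76, 11.06 and 11.06 in array order.

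Mammalian mitochondrial ribosomes hold relatives of bacterial ribosomal proteins and proteins that bacteria lack, and the numbers in the names reflect this. Members numbered within the bacterial range (up to 36 in the large and 21 in the small subunit), with Mrps24, the relative of bacterial S3, were 42. The rest were 32. Mrps18a, within the range by number and a relative of bacterial S18, was nevertheless counted with the rest. It was called higher in wild-type banding and in null sham, and lower in null banded. This split was made after values had been seen. In wild-type banding 19 of 41 measured bacterial-type members were higher and 1 lower (46.3% and 2.44%, median 0.78). Of the rest 10 of 32 were higher and 4 lower (31.25% and 12.5%, median 0.28), against 21.7% and 12.8% of all genes. In null banding the medians were 0.08 and 0.00, with 1 higher among the bacterial-type and 1 lower among the rest. Over all genes 6.98% were higher and 2.53% lower there. In sham mice 15 of 41 and 8 of 31 were higher in null (36.6% and 25.8%, against 16.3% of all genes), with medians of 0.51 and 0.18. In banded mice 5 of 41 and 3 of 32 were lower (12.2% and 9.38%, against 7.74% of all genes), with medians of -0.07 and 0.01.

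Promoters were compared because these genes are textbook targets of the nuclear respiratory factors NRF1 and GABP (an ETS family factor), whose sites lie close to the start of transcription. RefSeq windows of 250 bases before to 50 after the start (build GRCm38.p6) were found for 65 of the 74 members, 71 windows in all. Both strands were searched, and motifs were allowed to overlap. The ETS core CCGGAAG was in 24 of the 71 (33.8%), against 8.86% of 32851 windows in the genome and 14.0% of 12566 windows of genes on the array. The YY1 core AAGATGG was in 12 (16.9%, against 6.34% and 6.56%). The NRF1 palindrome (the capitals in the Mrpl39 line) was in 3 (4.23%, against 0.971% and 1.60%). Median GC content was 58.7% in the members, 52.7% in all windows and 59.0% in those of array genes. Counted per gene, since 3 members called higher have several windows, the ETS core was in 9 of 25 members higher in wild-type banding (36%) and in 15 of 40 of the others (37.5%). The 150 bases before the start follow for the stalk genes Mrpl12 and Mrpl10, for Mrps18a and Mrpl34, whose genotype differences pointed opposite ways in sham and banded mice, and for Mrpl39, which holds an NRF1 motif. Capitals mark the motifs above.
Mrpl12: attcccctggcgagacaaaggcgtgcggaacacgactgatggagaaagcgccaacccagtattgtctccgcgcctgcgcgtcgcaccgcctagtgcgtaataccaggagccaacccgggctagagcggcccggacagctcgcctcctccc
Mrpl10: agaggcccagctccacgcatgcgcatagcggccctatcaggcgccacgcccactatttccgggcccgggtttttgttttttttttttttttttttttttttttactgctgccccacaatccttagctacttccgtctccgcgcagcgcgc
Mrps18a: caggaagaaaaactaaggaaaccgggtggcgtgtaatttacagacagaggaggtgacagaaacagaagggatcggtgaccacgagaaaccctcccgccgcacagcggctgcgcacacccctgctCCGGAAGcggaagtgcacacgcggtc
Mrpl34: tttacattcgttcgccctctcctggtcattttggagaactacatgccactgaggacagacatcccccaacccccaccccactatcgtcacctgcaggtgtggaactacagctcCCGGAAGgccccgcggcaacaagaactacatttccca
Mrpl39: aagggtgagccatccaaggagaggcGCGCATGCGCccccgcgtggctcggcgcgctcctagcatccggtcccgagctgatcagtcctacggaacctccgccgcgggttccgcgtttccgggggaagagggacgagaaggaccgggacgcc
The stretches lie at chr11:120484487-120484636 (plus strand), chr11:97041432-97041581 (plus), chr17:46110854-46111003 (plus), chr8:71464776-71464925 (plus) and chr16:84735245-84735394 (minus), just upstream of each gene's first exon. Those of Mrps18a and Mrpl34 hold an ETS core that begins 26 and 37 bases before the start, that of Mrpl39 the NRF1 palindrome 125 bases before it, and those of Mrpl12 and Mrpl10 none of the 3. A match is a string of letters and not a measured binding site.

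The rest of the mitochondrial translation apparatus was set beside the members from lists of known genes. These lists are short, and in wild-type banding 21.7% of all genes were higher and 12.8% lower. Of 4 ribosomal proteins with other names, 2 were higher in wild-type banding and 0 lower: Gadd45gip1, a large subunit protein, by 1.88 and Dap3, the GTP-binding protein of the small subunit, by 1.29, against 0.26 and 0.06 in null banding. Of 7 measured translation factors 3 were higher and 0 lower: Tufm, the elongation factor that delivers tRNA, by 1.26, Gatb, which helps charge glutamine tRNA, by 1.18, and Mrrf, the ribosome recycling factor, by 1.13. None of the 6 factors measured in null banding was called there, against 6.98% of all genes higher and 2.53% lower. Tufm differed by -0.09 in null banding and was lower in null than in wild type among banded mice (-1.14). Of 6 measured mitochondrial aminoacyl-tRNA synthetases 3 were higher and 0 lower in wild-type banding (median 0.32): Fars2 by at least 3.64, Gars by 2.69 and Kars by at least 1.14, the last 2 serving the cytosol too. The other 3 had negative differences short of 2-fold: Tars2 -0.99, Rars2 -0.69 and Iars2 -0.50.

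Of 14 measured genes for ribosome assembly and mitochondrial RNA handling, 2 were called higher in wild-type banding and 2 lower (14.3% each, median -0.22). Over all genes 21.7% were higher and 12.8% lower. Higher were Mrm3, an rRNA methyltransferase, by 2.09 and Eral1, a chaperone of the small subunit's rRNA, by 1.48. Lower were C1qbp (-1.17) and Slirp (-1.09). Of 7 genes for mitochondrial DNA upkeep and transcription 2 were higher (Polg, the DNA polymerase, by at least 2.19 and Tfb2m, a transcription factor, by 1.79) and 1 lower (Ssbp1, which binds single-stranded DNA, -1.19). Tfam, which packages mitochondrial DNA, differed by 0.03 in both genotypes. Of 4 measured regulators 0 were higher and 2 lower in wild-type banding. Ppargc1a, the PGC-1 alpha coactivator, was lower after banding in both genotypes (-1.18 and -1.42). Gabpa, the DNA-binding part of GABP, differed by -1.54 in wild type and -0.79 in null. Nrf1 lay below the floor on every array (3.57, 3.04, 3.23 and 3.23) and gave no difference. In the list of 3 measured inner membrane genes Letm1 was higher in wild-type banding, by 1.54, and Oxa1l, which inserts new subunits into the membrane, differed by 0.08.

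Cytosolic ribosomal proteins and genes of the respiratory chain and ATP synthase were the gene groups closest in kind. The latter list was made by gene symbol and is not limited to subunits: it includes the assembly factor Ndufaf3. In wild-type banding 9 of 35 measured cytosolic ribosomal protein genes were higher and 1 lower (25.7% and 2.86%, median 0.21), and 19 of 81 respiratory chain and ATP synthase genes were higher and 0 lower (23.5% and 0%, median 0.09). The mitochondrial ribosomal genes had 39.7% and 6.85% and a median of 0.53 in the same comparison, and all genes 21.7% and 12.8% and a median of -0.08. In null banding the cytosolic group had a median of 0.32 with 0 called, the respiratory group -0.06 with 0 higher and 1 lower, and the mitochondrial ribosomal genes 0.05. All genes had a median of 0.08 there, with 6.98% higher and 2.53% lower. Differences between these groups were not tested.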

How the data were processed

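Biotin-labelled total RNA of mouse heart muscle was hybridised to 4 arrays, 1 pool per group, and groups were taken from the sample titles. The authors deposited GCRMA intensity values per the submitters' processing notes, whose version and settings are not given in the sources used here; a range from 1.5 to 43811.1 shows a linear scale.

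Of 22690 probe sets, 64 were controls, 20380 had 1 gene in the platform annotation, 691 several and 1555 none. Where a gene had several probe sets, that of highest mean log2 intensity stood for it; 33 members had several probe sets. All 74 member symbols matched the RefSeq table of GRCm38.p6 by gene identifier. Mrpl30 and Mrpl53 shared their probe set with another gene and were left out. Log2 values under 6 were set to 6 (64 intensity units), and log2 differences of 1 or more were counted beside the same count over all genes; the counting was tested on simulated data. With 1 array per group there was no test, and precision is limited by how few arrays there are.

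Genes named were members at least 2-fold different in a comparison, the largest differences in each direction, the 5 brightest, dimmest and steadiest members, genes whose probe sets differ, and list genes. The members and lists were chosen with earlier results of these data known. Alternatives were a floor of 32, no floor, quantile normalization and cyclic loess (limma 3.58.1), the mean of all probe sets and leaving out probe sets marked as shared; centring on the median of all genes and choosing probe sets by linear mean were added after the data were seen, as were the splits by bacterial numbering, brightness and probe set name. R 4.3.3 and Python 3.11.15 were used.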

Additional observations from a re-analysis of the deposited data

Results flagged for a closer look

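For 5 members the IL-18 null arrays had at least 2-fold higher signal than wild type in sham mice and at least 2-fold lower signal in banded mice; the opposite pattern occurred for 0 members. Over all 4640 genes measured in both comparisons, 184 had the first pattern and 54 the reverse. The difference between the genotype effects was not tested, since each rests on 1 array per group. The genotype effect in banded minus that in sham mice was -4.73 for Mrps18a, -4.41 for Mrpl4, -3.97 for Mrpl34, -3.69 for Mrpl10 and -2.58 for Mrpl19. Of these only the value of Mrpl4 comes from 4 arrays at or above the floor; the others are bounds because wild-type sham lay below it. In all 5 wild-type sham was the lowest and wild-type banded the highest array. For Mrpl19 the difference in sham mice was short of 2-fold after quantile normalization (0.91), and that in banded mice with the mean of all probe sets (-0.65).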

How the results depend on the processing

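Settings were compared on the counts of members at least 2-fold higher or lower in each comparison and on the 36 named members. The floor of 32, no floor and the choice of probe sets by linear mean kept every count within 1.5 times and reversed no named difference. After quantile normalization 8 members were lower in wild-type banding and 10 had a 2-fold positive difference of responses. After cyclic loess 1 was lower in wild-type banding, 2 lower in null banding and 2 positive in the difference of responses. With the mean of all probe sets 1 was lower in wild-type banding, 0 higher and 0 lower in null banding, 0 lower in null sham, 5 lower in null banded, and 3 positive in the difference. Without probe sets marked as shared, 18 of 53 members still measured were higher and 2 lower in wild-type banding, 2 were higher in null banding, and 3 were positive in the difference. With differences centred on the median of all genes 2 were lower in wild-type banding, 2 lower in null banding and 3 positive in the difference. Reversed differences were those of Mrpl11 with the mean of all probe sets (-0.49 in wild-type banding, -0.21 in null sham) and Mrpl44 (0.34), and, without shared probe sets, Mrpl41 (0.28), Mrpl44 (1.93) and Mrpl52 (0.89), all in wild-type banding; these settings read other probe sets of the gene. The members' median in wild-type banding stayed above that of all genes under all 8 alternatives. It was lowest with quantile normalization (0.17 against -0.41) and highest with cyclic loess (0.73 against 0.10). The gap between the 2 medians depended more on the choice of probe sets. It was 0.61 with the values as deposited and 0.43 without shared probe sets. With the mean of all probe sets it was smallest, at 0.30 (0.42 against 0.12). Of the share of higher among called members in wild-type banding, quantile normalization gave 75%, cyclic loess 96.8% and the values as deposited 85.3%. The balance over all genes shifted in the same directions. Quantile normalization put 16.7% of all genes up and 24.5% down, while cyclic loess put 24.3% up and 8.27% down. The values as deposited put 21.7% up and 12.8% down. No paired analysis was possible because each group has 1 array, and for the same reason no replicate could be left out. Signal over background limits the members below the floor in wild-type sham, whose differences are bounds.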

Other observations

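Among the probe sets that the annotation gives to a member and another gene, the 1 shared by Mrpl53 and Ccdc142 had log2 intensities of 8.58, 10.67, 10.63 and 11.02 in array order. That shared by Mrpl30 and Gm6238 had 11.80, 12.59, 12.42 and 12.61, and that shared by Mrps34 and Nme3 had 6.20, 7.59, 7.35 and 7.06. Wild-type sham was the lowest array in all 3.

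Ppargc1b, the beta relative of the PGC-1 coactivator, had 9.63, 10.04, 10.13 and 7.84 in array order, a banding difference of 0.40 in wild type and -2.28 in null. The ribosomal genes had a median of 0.05 in that null comparison. Yy1 had 9.03, 8.04, 8.44 and 8.45 on the same 4 arrays.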
